A study of Mus musculus with 2 samples.

Results

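The spots described here are the 120 capture spots, 60 in each of 2 mouse brain sections, that scored highest for Tshz2 and Lamp5 together in the upper part of the section, out of 7264 spots under tissue (3715 in mouse 1 and 3549 in mouse 2). A spot is a small round area of the 10x Visium array that captures polyadenylated RNA from the tissue above it, so it can hold several cells of different types. Spots were eligible when they had at least 500 UMIs (unique molecular identifiers, 1 per captured RNA molecule) and lay in array row 30 or less, which left 1343 spots in mouse 1 and 1209 in mouse 2. At least 1 UMI of each gene was required, which 156 and 209 spots met. The score was the mean, over the 2 genes, of log1p of the count per 10000 UMIs of the spot, and the 60 highest were taken in each section, so the spots were chosen by their measured UMIs of Tshz2 and Lamp5. They are called the Tshz2-Lamp5 spots. Values are given for mouse 1 and then for mouse 2 unless a sentence says otherwise, and a level in CPM is the UMIs of a gene per 1000000 UMIs of the summed spots.

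Tshz2 encodes a teashirt-family zinc finger transcription factor, and Lamp5 a neuronal relative of the lysosome-associated membrane proteins that is known from upper-layer cortical neurons and from a class of inhibitory neurons. In the mouse neocortex Tshz2 is best known from near-projecting neurons of the deep layers, while in the retrosplenial cortex it is also known from neurons of the superficial layers. The retrosplenial cortex lies along the dorsal midline, behind the cingulate cortex, exchanges projections with the hippocampal formation and the anterior thalamus, and serves navigation and memory. It has a granular part next to the midline, with densely packed small neurons in its superficial layers, and a dysgranular part beside it.

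Both sections came from mice that expressed the activating designer receptor hM3Dq and had been treated with its ligand CNO (clozapine N-oxide). The genotype of mouse 1 was labelled WT:C57BL/6J control and that of mouse 2 WT:CRISPR-Cas9 edited isogenic control, so that genotype label and section cannot be told apart. The 10 µm sections were cut from unperfused, fresh-frozen brains at 1.9 mm posterior to bregma, and the injection site lay at 4.6 mm posterior to bregma. No section without hM3Dq or CNO was analysed here, the labels do not say which side of the image was injected, and the sources used here name no promoter or cell type for hM3Dq. The 2 mice are the replicates, and spots of 1 section were never treated as replicates.

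Mouse 2 was captured more deeply, with a median of 14663 UMIs per spot of the whole section, against 7547 in mouse 1. The Tshz2-Lamp5 spots summed to 461777 and 909831 UMIs, and their median depth of 6618.5 and 14380.5 UMIs lay slightly above that of the other eligible spots, 6121 and 13529. Mitochondrial transcripts took a median of 15.5% and 18.6% of the UMIs of a Tshz2-Lamp5 spot, against 12.9% and 15.9% in other spots, and the part of this gap in the results was not tested beyond leaving mitochondrial genes out. The 2 sections share 3369 spot barcodes, which are positions on the array and not shared cells, and 12 array positions held a Tshz2-Lamp5 spot in both.

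Tshz2 and Lamp5 chose the spots, so their levels are given as a description. Tshz2 (chromosome 2, 169632509 to 170072751, mm10) stood at 338 and 229.7 CPM in the Tshz2-Lamp5 spots, against 26.2 and 20.6 CPM in the other eligible spots. Lamp5 (chromosome 2, 136052025 to 136069917) stood at 448 and 432 CPM, against 99.8 and 92.9 CPM. In UMIs, a spot held 1 to 7 of Tshz2 in mouse 1 (median 2) and 1 to 8 in mouse 2 (median 3), and 1 to 11 and 1 to 17 of Lamp5 (medians 3 and 7). A single Tshz2 UMI placed 19 spots of mouse 1 and 4 of mouse 2 among the 60. The threshold was narrow: the last spot taken scored 1.312 and the first left out 1.294 in mouse 1, and 1.1513 and 1.1511 in mouse 2. The spots held 40.6% and 37.7% of all Tshz2 UMIs of the eligible spots and 19.2% and 20.2% of the Lamp5 UMIs, with 5.04% and 5.15% of all UMIs.

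The Tshz2-Lamp5 spots lay along the dorsal midline, on both sides of it. A mirror line was placed in each section where expression was most alike on its 2 sides, without use of Tshz2 or Lamp5. Distances are in spot pitches, the spacing between neighbouring spots. The median distance to that line was 4.11 and 3.07 pitches for the Tshz2-Lamp5 spots, against 14.3 and 13.0 for other eligible spots. Within 5 pitches of the line lay 40 and 47 of the 60 spots (66.7% and 78.3%), against 15.4% and 17.2% of the others. Within 10 pitches lay 53 and 60. By image side, 31 spots of mouse 1 were left of the line, 27 right of it and 2 on it, and mouse 2 had 27, 31 and 2. They were also clustered: 47 and 54 touched at least 1 other Tshz2-Lamp5 spot. Beyond 15 pitches, or in rows over 20, lay 4 spots of mouse 1 and 1 of mouse 2. The rule used no position other than the row limit, and with 2 mice these shares carry no test.

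**Figure D1:**
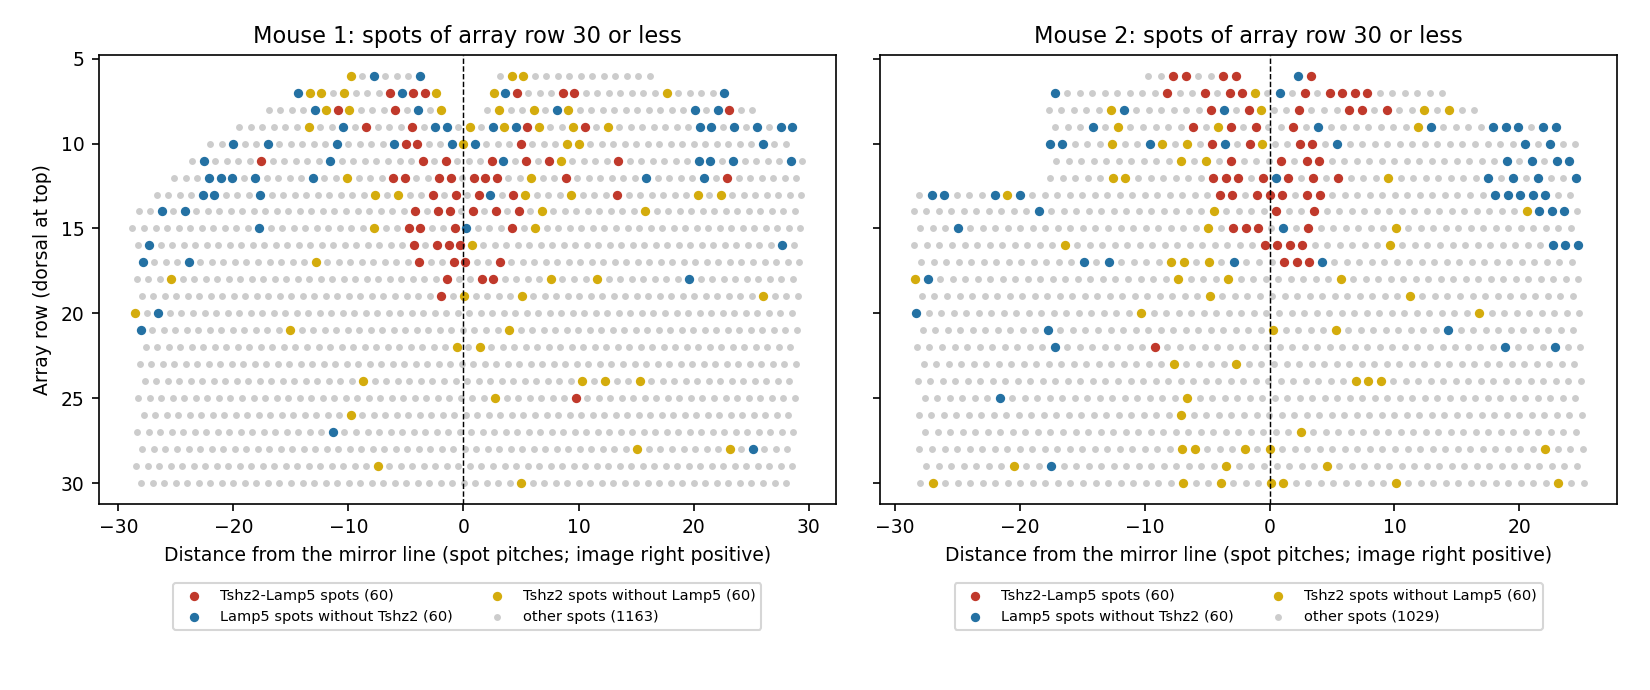
Position of the eligible spots in each section, with distance from the mirror line in spot pitches on the x axis and array row on the y axis (dorsal at the top). In both mice the Tshz2-Lamp5 spots (red, 60 per section) line the midline, while the 60 Lamp5 spots without Tshz2 (blue) lie mostly lateral to them and the 60 Tshz2 spots without Lamp5 (yellow) are more scattered.

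Tshz2 and Lamp5 were also raised, to lower levels, in the tissue next to these spots. Spots that were not chosen but touched a chosen one (163 and 96 spots) had 97.1 and 103.8 CPM of Tshz2, against 15.6 and 13.0 CPM in eligible spots that touched none. Lamp5 had 184.5 and 183.5 CPM next to the Tshz2-Lamp5 spots, against 87.2 and 84.6 CPM elsewhere. The rule chose among these spots too, so this is a description.

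The first comparison set the Tshz2-Lamp5 spots against all other eligible spots of the same sections. The UMIs were summed per mouse, which gave 4 libraries, and were tested with edgeR's quasi-likelihood test with the mouse as a block and Benjamini-Hochberg adjustment over all 13076 genes tested. At an adjusted p under 0.05, 674 genes were higher (5.15%) and 757 lower (5.79%), with both mice in that direction for 666 (5.09%) and 751 (5.74%). With 1 residual degree of freedom the SE and p rest on a spread pooled over genes, not on the spread between the mice, and DESeq2 called 173 higher and 190 lower. In a bulk sum of spots, fewer cells of a type and less RNA per cell cannot be told apart.

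The label names the retrosplenial cortex, and 3 candidate genes were listed for it: Slc17a6, the vesicular glutamate transporter VGLUT2; Cxcl14, a secreted chemokine; and Scnn1a, a sodium channel subunit. All 3 were higher in the Tshz2-Lamp5 spots than in all other eligible spots, against 5.15% of all genes tested. The list was chosen with earlier results of these data known, so this count does not test the label. Slc17a6 (chromosome 7, 51621830 to 51671126) had 62.8 and 91.2 CPM in the Tshz2-Lamp5 spots, against 18.2 and 26.9 CPM elsewhere (log2 ratio 1.77 ± 0.19, SE from the fit). Cxcl14 had 152 and 139.6 CPM, against 104 and 106 CPM (log2 0.45 ± 0.13), and Scnn1a had 10.8 and 10.99 CPM, against 2.76 and 3.64 CPM (log2 1.71 ± 0.52). In all 3 genes both mice of the Tshz2-Lamp5 spots lay above both mice of the other spots. Cxcl14 lost its call under DESeq2 (a second count test), without the mouse term, with 30 spots per section and after thinning to 2000 UMIs, and Scnn1a under 4 alternatives. Against the Lamp5 spots without Tshz2, the comparison described further on, Slc17a6 passed, but Cxcl14 had 152 and 139.6 CPM, against 145 and 139 CPM, a log2 ratio of -0.01 (edgeR adjusted p = 0.994), and Scnn1a was too low to be tested. Markers of near-projecting neurons, for which Tshz2 is otherwise known, gave no call: of 5 listed, Slc17a8, Sla2 and Stac had 0 UMIs in the Tshz2-Lamp5 spots of both mice, and Lypd1, the only 1 tested, had 45.5 and 44.0 CPM, against 39.5 and 49.3 CPM.

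Cbln1 led the rises. The gene (chromosome 8, 87468853 to 87472592, mm10) encodes cerebellin 1, a secreted protein that bridges presynaptic neurexins and postsynaptic delta glutamate receptors. It had 49.8 and 57.2 CPM in the Tshz2-Lamp5 spots, against 6.66 and 10.4 CPM in other spots (log2 2.59 ± 0.26, edgeR adjusted p = 1.52e-20), and its relative Cbln2 had 52.0 and 52.8 CPM, against 15.7 and 19.1 CPM (log2 1.55 ± 0.23). At least 1 UMI of Cbln1 was found in 12 of the 60 spots of mouse 1 and 26 of 60 in mouse 2. Of the 14 listed synaptic organisers, these 2 were higher and 3 lower: C1ql3, a secreted C1q-like organiser of synapses, at 2.17 and 15.4 CPM, against 50.7 and 59.6 CPM (log2 -2.38 ± 0.30), and the pentraxin genes Nptx1 and Nptxr. The median log2 ratio of the list was -0.01, near the -0.03 of all genes tested, of which 5.15% were higher and 5.79% lower.

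Large rises also came from genes known for fast transmitter release and from parvalbumin. Syt2, the fast calcium sensor of transmitter release, had 62.8 and 80.2 CPM in the Tshz2-Lamp5 spots, against 16.7 and 16.4 CPM (log2 2.16 ± 0.21, edgeR adjusted p = 1.88e-22). Vamp1, a vesicle SNARE protein, had 156 and 193 CPM, against 52.3 and 65.6 CPM (log2 1.56 ± 0.13). Pvalb (chromosome 15, 78191112 to 78206400), the calcium-binding protein parvalbumin, which marks fast-spiking inhibitory neurons and is also made by some excitatory ones, had 949 and 891 CPM, against 296 and 249.5 CPM (log2 1.75 ± 0.08, edgeR adjusted p = 1.73e-93). It was found in 56 and 60 of the 60 spots, with medians of 6 and 9.5 UMIs. These genes were named by the size of their change, and release genes were not listed as a group.

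Among the listed markers of inhibitory neurons, Pvalb had the largest log2 ratio. Gad1, which makes GABA, had 251 and 276 CPM in the Tshz2-Lamp5 spots, against 182 and 189 CPM (log2 0.50 ± 0.10), and Slc32a1, which loads it into vesicles, 73.6 and 81.3 CPM, against 48.9 and 58.3 CPM (log2 0.51 ± 0.17). Gad1 lost its call without the mouse term and after thinning, and Slc32a1 under 6 alternatives, DESeq2 among them. Of the 11 listed inhibitory genes, these 3 were higher, Sst, which encodes somatostatin, was lower, and 7 did not pass. The shares over all genes were 5.15% higher and 5.79% lower. The difference between Pvalb and the others was not tested.

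Among ion channels, 11 of the 42 potassium channel genes tested were higher and 2 lower, against 5.15% and 5.79% of all genes, and the median log2 ratio of the list was 0.34. Kcnab3, a beta subunit of voltage-gated potassium channels, had 97.4 and 91.2 CPM in the Tshz2-Lamp5 spots, against 27.8 and 22.5 CPM (log2 1.93 ± 0.18, edgeR adjusted p = 6.70e-23). Kcna2, a delayed rectifier, had 184 and 202 CPM, against 96.6 and 99.0 CPM (log2 0.98 ± 0.12). Kcnc1 and Kcnc4, of the Kv3 family known for rapid repolarisation, were among the 11, while Kcnq3 and Kcnip2 were the 2 lower ones. Of 19 sodium and calcium channel genes, 4 were higher, Scn1a, Scn4b and Cacna1i among them, and Scn3b and Cacna1e were lower. Scn4b, a sodium channel beta subunit, had 67.1 and 59.4 CPM, against 19.6 and 20.7 CPM (log2 1.61 ± 0.21), and Scn3b, another beta subunit, 21.7 and 21.98 CPM, against 71.5 and 107 CPM (log2 -2.11 ± 0.22).

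Most receptor genes did not pass. Of 14 GABA receptor genes, 3 were higher, Gabrd among them, and Gabra5 and Gabrb1 were lower, with a list median of -0.11, against shares of 5.15% and 5.79% over all genes. Gabrd, a subunit of receptors outside the synapse, had 82.3 and 76.9 CPM in the Tshz2-Lamp5 spots, against 43.7 and 41.3 CPM (log2 0.90 ± 0.18), a call lost after thinning, and Gabra5 had 52.0 and 50.6 CPM, against 86.2 and 102 CPM (log2 -0.91 ± 0.18), a call lost when only rows up to 20 were used and after thinning. Of 20 glutamate receptor genes, Grik1 and Grm4 were higher and Gria1, Grin2a and Grin2b lower, with a list median of 0.03. Grik1 and Grm4 each lost the call under 3 alternatives, and for Grin2a the mice opposed each other, at log2 0.03 in mouse 1 and -0.80 in mouse 2. Gria1, an AMPA receptor subunit, had 82.3 and 90.1 CPM, against 207 and 286 CPM (log2 -1.56 ± 0.14, edgeR adjusted p = 9.89e-28). Htr2c, a serotonin receptor, had 65.0 and 59.4 CPM, against 19.3 and 30.0 CPM (log2 1.24 ± 0.21), the only 1 of 12 monoamine receptor genes that was higher, and its call was lost with 30 spots per section and after thinning.

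Against all other eligible spots, the upper-layer and layer 6 genes that passed were all lower, and those of layer 4 higher. Layer 5 genes went both ways. Over all genes tested, 5.15% were higher and 5.79% lower. None of the 8 upper-layer genes tested was higher and 3 were lower, among them Wfs1 at 19.5 and 18.7 CPM in the Tshz2-Lamp5 spots, against 53.9 and 76.4 CPM (log2 -1.85 ± 0.25). With rows up to 20 only, 1 of the 8, Cux1, was higher and 3 were lower, Wfs1 again among them. Of 5 layer 4 genes, Rspo1, a secreted activator of Wnt signalling, had 34.6 and 38.5 CPM, against 9.99 and 7.52 CPM (log2 2.13 ± 0.30), and Scnn1a was the other 1 that rose. The remaining 3 did not pass, among them Rorb, found in 3 and 15 of the 60 spots. Against the Lamp5 spots without Tshz2, none of the 3 layer 4 genes tested passed, with a median log2 ratio of -0.11. Of 7 layer 5 genes, Etv1, Parm1 and Tox were higher and Bcl11b and Pcp4 lower. Etv1, an ETS transcription factor, had 234 and 257 CPM, against 96.5 and 99.6 CPM (log2 1.33 ± 0.11, edgeR adjusted p = 6.75e-29), and Parm1, a mucin-like membrane protein, 160.3 and 179 CPM, against 46.5 and 44.4 CPM (log2 1.92 ± 0.14, edgeR adjusted p = 2.39e-40). Pcp4, a calmodulin-binding peptide, stood at 442 and 402 CPM, against 952 and 929.5 CPM. In layer 6, 7 of 9 genes were lower, for example Foxp2 at 4.33 and 3.30 CPM, against 16.1 and 13.7 CPM (log2 -1.99 ± 0.55), and none was higher. Of the 28 cortical transcription factors, which overlap these lists, 7 were higher, Satb1, Mef2c and Zfpm2 among them, and 6 lower, with Bhlhe22, Neurod2 and Neurod6 among them. With rows up to 20 only, 6 of the 28 were higher, Satb1, Mef2c and Zfpm2 again among them. The 4 lower ones there were Bcl11b, Foxp2, Nr2f1 and Tle4, and Bhlhe22, Neurod2 and Neurod6 had no call.

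Other large rises came from genes outside the lists. Nrep, a small protein of regenerating neurons, had 160.3 and 199 CPM in the Tshz2-Lamp5 spots, against 46.9 and 49.5 CPM (log2 1.91 ± 0.13, edgeR adjusted p = 1.58e-42), and was found in 37 and 55 of the 60 spots. Pygm, a glycogen phosphorylase, had 43.3 and 65.9 CPM, against 16.3 and 17.7 CPM (log2 1.74 ± 0.22), and Coro6, an actin-binding coronin, 45.5 and 69.2 CPM, against 15.6 and 14.8 CPM. Plcxd2 (log2 1.64 ± 0.17), Dkkl1 (log2 1.56 ± 0.21) and Stac2 (log2 1.47 ± 0.16) completed the 15 largest rises. After thinning to 2000 UMIs, Pygm, Coro6, Plcxd2, Dkkl1, Stac2, Cbln2 and Rspo1 kept their direction but not their call.

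CNO activates hM3Dq, so activity-regulated genes were listed, and they did not rise as a group in the Tshz2-Lamp5 spots. Of 18 immediate early genes, which switch on within minutes of strong activity, none was higher and Jun, Egr1 and Nr4a3 were lower. Over all genes tested, 5.15% were higher and 5.79% lower. The median log2 ratio of the list was -0.40, against -0.03 for all genes. Egr1 had 154 and 146 CPM in the Tshz2-Lamp5 spots, against 183 and 209.6 CPM (log2 -0.42 ± 0.12, edgeR adjusted p = 0.00649). Fos had 25.99 and 20.9 CPM, against 14.4 and 11.3 CPM, a log2 ratio of 0.86 ± 0.33 that missed the threshold (edgeR adjusted p = 0.0660) and passed it with 120 spots per section. Arc had 17.3 and 15.4 CPM, against 27.5 and 25.02 CPM (edgeR adjusted p = 0.153), and Npas4 0 and 3.30 CPM, against 4.94 and 3.58 CPM (adjusted p = 0.599). The call of Egr1 was lost after thinning, under DESeq2 and without the mouse term, and those of Jun and Nr4a3 under 6 alternatives each, rows up to 20 among them. With those rows only, 4 of 17 immediate early genes were lower (Jund, Egr1, Egr3 and Egr4) and none was higher. The list median there was -0.54, and 5.17% of all genes were lower. Among 11 late activity-regulated genes, Rgs4, a brake on G-protein signalling, was higher at 314 and 374 CPM, against 146 and 142 CPM (log2 1.27 ± 0.10, edgeR adjusted p = 8.20e-34), Pcsk1 was the other that rose, and Nptx2, Rasgrp1 and Sorcs3 were lower.

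**Figure D2:**
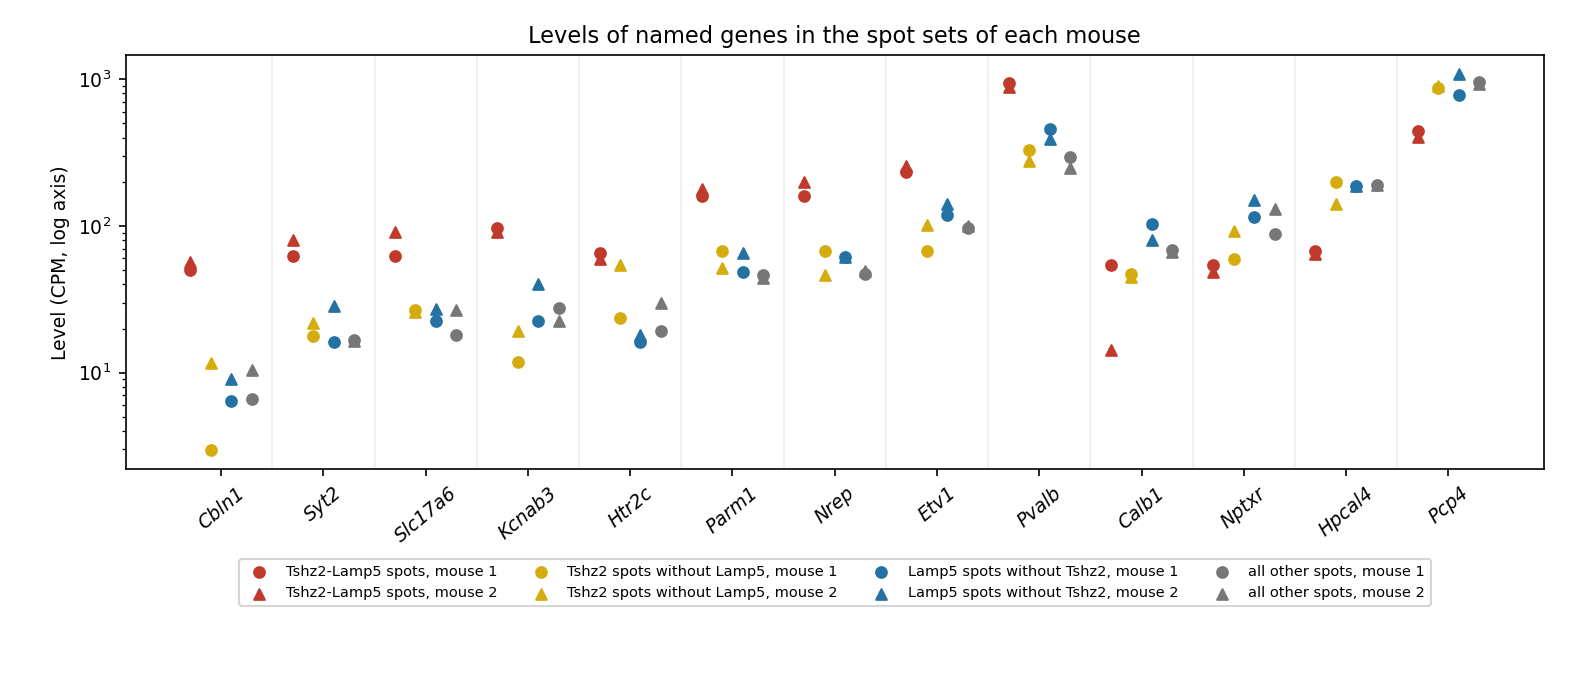
Levels of 13 genes in CPM on a log axis in the Tshz2-Lamp5 spots, the Tshz2 spots without Lamp5, the Lamp5 spots without Tshz2 and all other eligible spots, with 1 point per mouse (circle, mouse 1; triangle, mouse 2). Cbln1, Syt2, Slc17a6, Kcnab3, Parm1, Nrep, Etv1 and Pvalb lie highest in the Tshz2-Lamp5 spots of both mice, and Nptxr, Hpcal4 and Pcp4 lowest.

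Glial and vascular genes were lower or did not pass, beside a share of 5.79% lower over all genes. All 8 oligodendrocyte genes were lower, with a summed level of 4745 and 6385 CPM in the Tshz2-Lamp5 spots, against 9904 and 9938 CPM elsewhere, and a median log2 ratio of -0.86. Mal, a membrane protein of myelin, had 145 and 193 CPM, against 372 and 351 CPM (log2 -1.05 ± 0.11, edgeR adjusted p = 8.51e-19). Of 10 astrocyte genes, Aqp4, Gfap and S100b were lower, Gfap at 25.99 and 40.7 CPM, against 119 and 108 CPM (log2 -1.66 ± 0.19). The 7 microglial genes summed to 169 and 186 CPM, against 314 and 279 CPM, of which 2 were lower, Aif1 among them, and none of the 10 endothelial and mural genes passed.

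C1q and immunoglobulins, which the title of the study names, were low in these spots. C1qa, a subunit of the complement initiator C1q that microglia make, had 32.5 and 46.2 CPM in the Tshz2-Lamp5 spots, against 91.2 and 82.5 CPM (log2 -1.06 ± 0.19, edgeR adjusted p = 1.41e-06). C1qb had 32.5 and 47.3 CPM, against 81.2 and 83.2 CPM (log2 -0.98 ± 0.19, edgeR adjusted p = 1.13e-05), and both lost the call after thinning. The third subunit, C1qc, had 47.6 and 56.1 CPM, against 73.9 and 65.9 CPM, and did not pass (log2 -0.38 ± 0.18, edgeR adjusted p = 0.189). C4b was lower as well, and C3 had 0 UMIs in the Tshz2-Lamp5 spots. These levels lie beside the lower microglial sum, whose part in them was not tested. The immunoglobulin light chain Igkc had 0 and 2.20 CPM, which was 0 and 2 UMIs, against 39.5 and 21.8 CPM, and the heavy chain Ighm 32.5 and 15.4 CPM, against 68.1 and 56.9 CPM (log2 -1.52 ± 0.24). Igkc passed against spots of all eligible rows but not against those of rows up to 20.

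Several of the largest falls were in genes known from choroid plexus and hippocampus, which the row limit still admits. Ttr, the transthyretin of the choroid plexus, had 136 and 447 CPM in the Tshz2-Lamp5 spots, against 4617 and 6531 CPM (log2 -4.23 ± 0.10), and all 5 choroid plexus genes were lower. Clic6, another of them, had 0 UMIs in the Tshz2-Lamp5 spots of both mice, against 21.7 and 28.7 CPM in other spots. Over all genes tested, 5.79% were lower. Spink8, a marker of hippocampal pyramidal cells, had 10.8 and 6.59 CPM, against 81.9 and 93.2 CPM (log2 -3.48 ± 0.29). Enpp2, which makes lysophosphatidic acid and is abundant in choroid plexus, had 193 and 179 CPM, against 747 and 851 CPM (log2 -2.14 ± 0.11), and Zbtb20, a transcription factor of the hippocampus, 36.8 and 24.2 CPM, against 109 and 126.8 CPM (log2 -2.08 ± 0.20). The 10 largest falls also held Lmo1 (log2 -2.06 ± 0.28), Rasl10a (log2 -1.87 ± 0.26) and Wipf3 (log2 -1.84 ± 0.19), of which Wipf3 kept its call in every alternative run. With rows up to 20 only, which left 708 and 614 other spots, Ttr had a log2 ratio of -0.05 and no call.

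The rows up to 20 gave a comparison with the other spots of the upper rows alone. Of 4 genes of hippocampal cell layers tested there, Spink8 and Fibcd1 were still lower and C1ql2 was higher. Of 3 thalamic genes, Prkcd was lower. Whether the other spots of these rows held cortex alone was not tested. There 527 genes were higher (4.5% of 11710) and 605 lower (5.17%), of which 457 and 473 were also called with all eligible rows. The 3 retrosplenial candidates stayed higher, 12 of 40 potassium channel genes were higher and 1 lower, all 8 oligodendrocyte genes were lower, and layer 6 genes were lower in 8 of 8. C1qa, C1qb and C4b stayed lower. None of the 2 choroid plexus genes tested there passed, and among meningeal genes Ptgds, which makes prostaglandin D2, was higher.

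**Figure D3:**
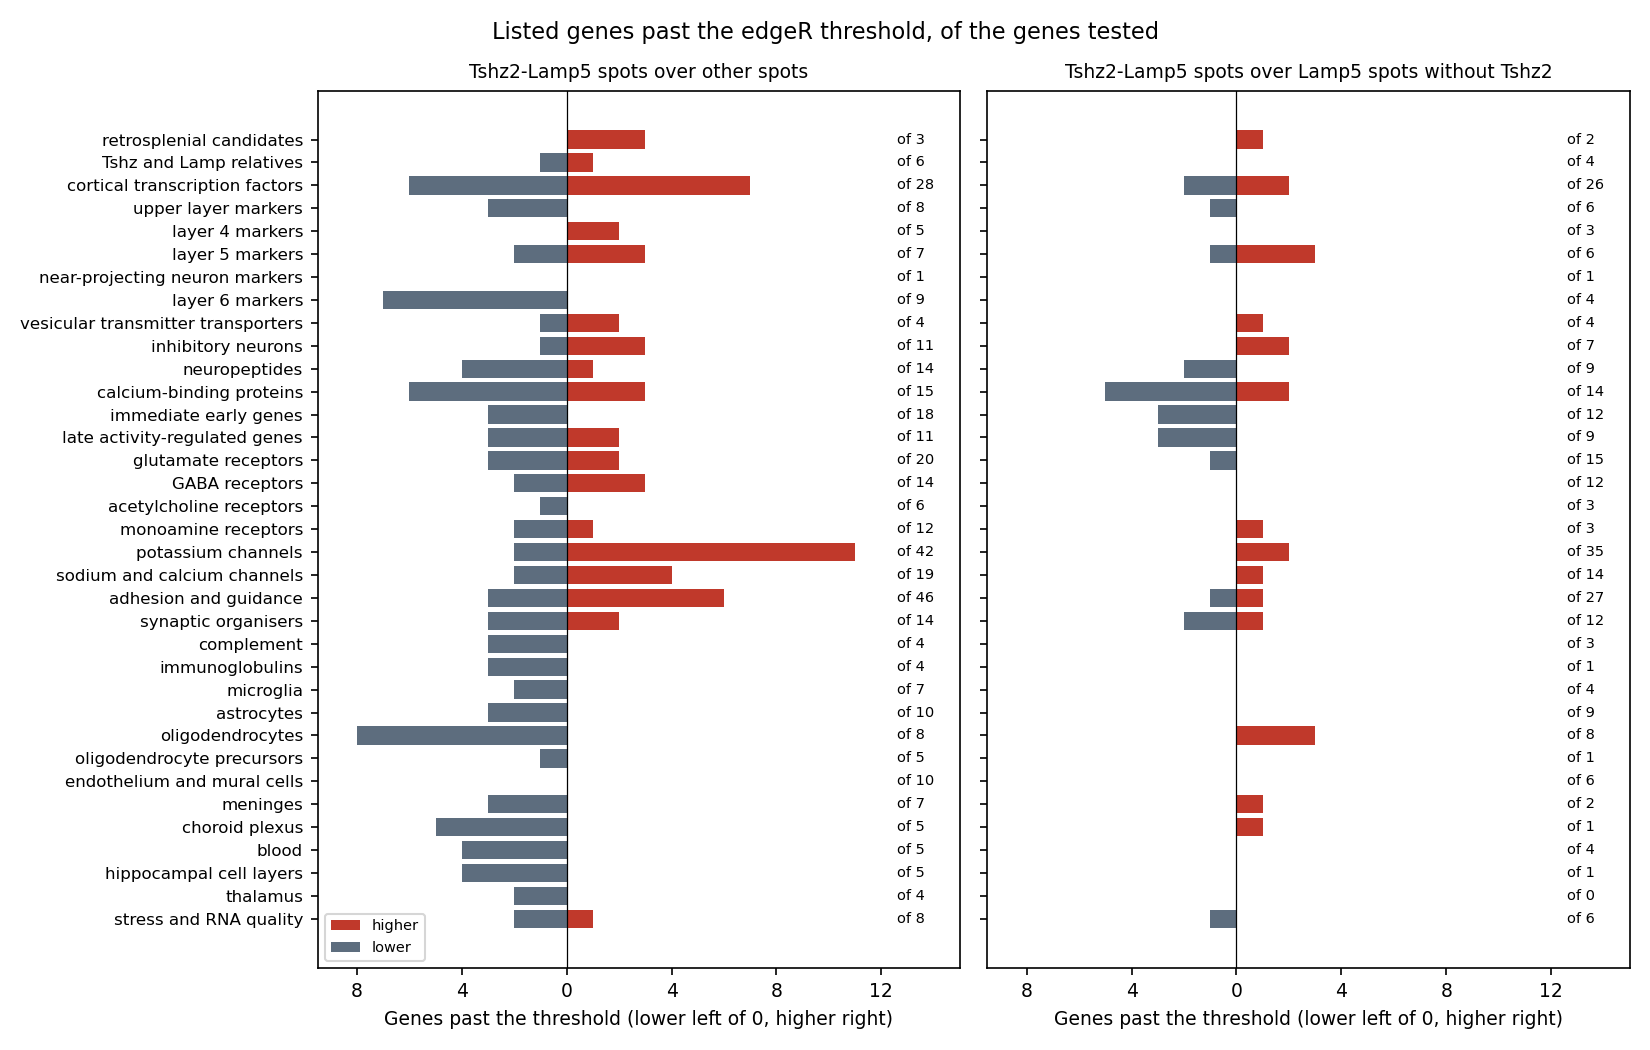
Number of genes past the edgeR threshold in each list, higher to the right of 0 and lower to the left, with the number tested at the right edge. The left panel sets the Tshz2-Lamp5 spots against all other eligible spots and the right panel against the Lamp5 spots without Tshz2, where 3 of the 8 oligodendrocyte genes were higher, while against all other spots 8 of 8 were lower.

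The second comparison asked what sets the Tshz2-Lamp5 spots apart from other Lamp5 tissue. It used the same Tshz2-Lamp5 libraries and, from each section, the 60 eligible spots with the highest Lamp5 score and 0 Tshz2 UMIs. Those spots lay laterally, at a median of 20.1 and 19.0 pitches from the mirror line, with 12 and 9 of them within 5 pitches. Their Lamp5 level, which chose them, was 686 and 436 CPM, against 448 and 432 CPM in the Tshz2-Lamp5 spots. Their median depth was 5023.5 and 11685 UMIs. Of 7536 genes tested, 69 were higher in the Tshz2-Lamp5 spots (0.916%) and 164 lower (2.18%), with DESeq2 calling 4 and 22.

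Cbln1 led again, at 49.8 and 57.2 CPM in the Tshz2-Lamp5 spots, against 6.44 and 9.09 CPM in the Lamp5 spots without Tshz2 (log2 2.67 ± 0.47, edgeR adjusted p = 3.03e-06). Emb, the adhesion molecule embigin, had 78.0 and 53.9 CPM, against 9.66 and 19.5 CPM (log2 1.85 ± 0.37), and Htr2c 65.0 and 59.4 CPM, against 16.1 and 18.2 CPM (log2 1.76 ± 0.37). Slc17a6 had 62.8 and 91.2 CPM, against 22.5 and 27.3 CPM (log2 1.64 ± 0.30, edgeR adjusted p = 1.72e-05). In each of these 4 genes both mice of the Tshz2-Lamp5 spots lay above both mice of the lateral Lamp5 spots, and each lost its call with 30 spots per section, where fewer UMIs were summed.

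Nrep had 160.3 and 199 CPM in the Tshz2-Lamp5 spots, against 61.2 and 61.0 CPM (log2 1.57 ± 0.20, edgeR adjusted p = 4.80e-12), and Parm1 160.3 and 179 CPM, against 48.3 and 64.9 CPM. Both lost the call after thinning to 2000 UMIs. DESeq2 gave an adjusted p for 10 of the 50 called genes that were followed. Pvalb had 949 and 891 CPM, against 457 and 389.6 CPM (log2 1.10 ± 0.11, edgeR adjusted p = 2.33e-19), and kept its call in every alternative run. Etv1 had 234 and 257 CPM, against 119 and 142 CPM (log2 0.86 ± 0.16), and Zfpm2, a cofactor of GATA factors, 49.8 and 39.6 CPM, against 16.1 and 14.3 CPM (log2 1.48 ± 0.42). Syt2, Kcnab3, Tox and Pygm were again higher, with log2 ratios between 1.39 and 1.56. Of 35 potassium channel genes, 2 were higher, Kcnab3 among them, and none was lower, against 0.916% and 2.18% of all genes.

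The genes that were lower in the Tshz2-Lamp5 spots included calcium-binding proteins, synaptic organisers and activity-regulated genes. C1ql3 had 2.17 and 15.4 CPM, against 45.1 and 53.2 CPM in the Lamp5 spots without Tshz2 (log2 -2.23 ± 0.42, edgeR adjusted p = 2.62e-05). Hpcal4, a neuronal calcium sensor, had 67.1 and 64.8 CPM, against 187 and 187 CPM (log2 -1.54 ± 0.19, edgeR adjusted p = 1.88e-12), and Pcp4 (chromosome 16, 96467606 to 96525793) 442 and 402 CPM, against 783 and 1084 CPM (log2 -1.23 ± 0.11, edgeR adjusted p = 4.36e-25). Pcp4 kept its call in every alternative run. Hpcal4 had no adjusted p under DESeq2, and C1ql3 none there, with 30 spots or after thinning, and both kept their calls in the others. Calb1, the calcium buffer calbindin, had 54.1 and 14.3 CPM, against 103 and 80.5 CPM (log2 -1.72 ± 0.29), and the 2 mice differed in size, at log2 -0.87 and -2.31. In all, 5 of 14 calcium-binding genes were lower (Calb1, Hpca, Hpcal4, Nrgn and Pcp4) and 2 higher (Pvalb and Vsnl1). The shares over all genes were 2.18% lower and 0.916% higher.

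Nptxr, the pentraxin receptor of excitatory synapses, had 54.1 and 48.4 CPM in the Tshz2-Lamp5 spots, against 116 and 149 CPM (log2 -1.48 ± 0.22, edgeR adjusted p = 2.18e-08). Myl4, a myosin light chain, had 28.2 and 17.6 CPM, against 64.4 and 87.0 CPM (log2 -1.93 ± 0.32), and Kcnv1, a silent potassium channel subunit outside the list, 8.66 and 18.7 CPM, against 70.9 and 39.0 CPM (log2 -1.72 ± 0.40). Among 12 immediate early genes tested, Egr1, Egr3 and Egr4 were lower and none higher, against 2.18% and 0.916% of all genes. Egr3 had 62.8 and 65.9 CPM, against 138 and 129 CPM (log2 -1.06 ± 0.21, edgeR adjusted p = 1.13e-04), and Egr4 13.0 and 15.4 CPM, against 45.1 and 50.6 CPM (log2 -1.76 ± 0.40). Fos, at 25.99 and 20.9 CPM, against 6.44 and 14.3 CPM, did not pass (edgeR adjusted p = 0.463). Of 9 late activity-regulated genes, Homer1, Nptx2 and Rasgrp1 passed and were lower, although for Rasgrp1 the mice opposed each other. Nptx2 lost its call under 6 alternatives, and Homer1 and Egr1 under 3 each, while Egr3 and Egr4 lost theirs with 30 spots per section. The neuropeptide genes Cck, at 1031 and 936 CPM, against 1717 and 1389.5 CPM, and Npy, at 152 and 143 CPM, against 271 and 222 CPM, were lower as well, as was Malat1, a nuclear RNA, at 1137 and 923 CPM, against 1710.2 and 1501 CPM.

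**Figure D4:**
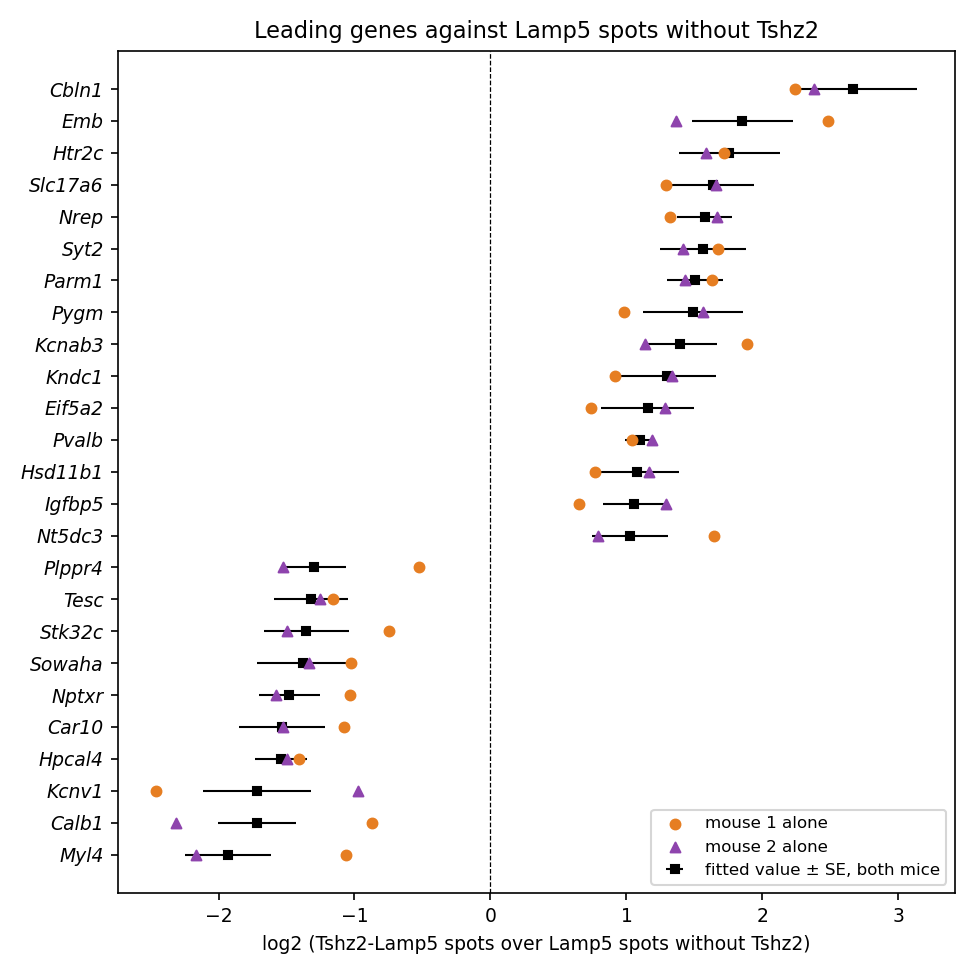
Largest differences between the Tshz2-Lamp5 spots and the Lamp5 spots without Tshz2, as log2 ratios (squares, fitted value with SE from the pooled spread; circles, mouse 1 alone; triangles, mouse 2 alone), for the 15 largest rises and 10 largest falls with at least 50 CPM in the higher set. Every gene shown has both mice on 1 side of 0, and the mice lie furthest apart in Kcnv1 and Calb1.

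Oligodendrocyte genes were higher than in the Lamp5 spots without Tshz2, while they were lower than in all other spots. Of 8 oligodendrocyte genes, 3 were higher in the Tshz2-Lamp5 spots, Mbp and Mag among them, against 0.916% of all genes. The list summed to 4745 and 6385 CPM, against 2332 and 5263 CPM in the Lamp5 spots without Tshz2. Mbp, a main protein of myelin, had 2354 and 3303 CPM, against 1275 and 2586 CPM (log2 0.54 ± 0.10), a call lost with 120 spots per section, with the raw-count score, under DESeq2 and when the mouse term was dropped. None of the astrocyte, microglial, complement or endothelial genes tested passed, and the median log2 ratio was 0.02 for astrocyte, -0.46 for microglial and -0.72 for complement genes. C1qa had 32.5 and 46.2 CPM, against 32.2 and 85.7 CPM (edgeR adjusted p = 0.177), C1qb 32.5 and 47.3 CPM, against 64.4 and 70.1 CPM (edgeR adjusted p = 0.171), and C1qc 47.6 and 56.1 CPM, against 32.2 and 57.1 CPM (edgeR adjusted p = 0.947). C1qa passed with 120 spots per section and with rows up to 20. The upper layer marker Calb1 was the only 1 of 6 that passed. The 2 sets lay at different distances from the edge of the tissue, and the part of this in these values was not tested.

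Spots with Tshz2 but no Lamp5 lay further from the midline and had lower levels of the leading genes. The 60 with the highest Tshz2 score, of 78 and 67 such spots, held only 77 and 79 Tshz2 UMIs in all, and 23.3% and 31.7% of them lay within 5 pitches of the mirror line. Cbln1 stood at 2.95 and 11.6 CPM there, Syt2 at 17.7 and 21.9 CPM, Nrep at 68.0 and 46.5 CPM and Pvalb at 328 and 277 CPM, all of them below the Tshz2-Lamp5 spots in both mice. Htr2c, at 23.6 and 54.2 CPM, came nearest in mouse 2. Pcp4, at 878 and 905 CPM, and Hpcal4, at 198 and 142 CPM, were above the Tshz2-Lamp5 spots. The set was described by levels only and was not tested.

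Several of these genes were also graded with distance from the midline in spots that the rule did not choose. Eligible spots of rows up to 20 outside the 60 were binned by distance, with 53 to 253 spots in a bin. Cbln1 had 44.8 and 72.3 CPM within 3 pitches of the mirror line, 15.9 and 17.7 CPM from 3 to 6 pitches, 5.01 and 6.008 CPM from 6 to 9 pitches and 2.95 and 2.84 CPM beyond 18 pitches. Nrep had 159 and 162 CPM within 3 pitches, 112 and 72.9 CPM from 3 to 6 pitches and 45.0 and 35.8 CPM from 9 to 12 pitches. Htr2c, at 67.1 and 72.3 CPM nearest the line, had 4.73 and 10.1 CPM beyond 18 pitches. In both mice these 3 genes were highest in the bin next to the line.

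Slc17a6 had 87.0 and 63.7 CPM within 3 pitches, 37.2 and 47.3 CPM from 3 to 6 pitches and 10.4 and 17.0 CPM from 9 to 12 pitches. Pvalb kept its level over the first 2 bins, at 801 and 547 CPM and 765 and 546 CPM, and had 199 and 251 CPM from 9 to 12 pitches. Lamp5 had 2 maxima, 201 and 195 CPM at the midline and 176 and 173 CPM beyond 18 pitches, with 84.8 and 68.2 CPM between them. Genes that were lower in the Tshz2-Lamp5 spots ran the other way: Pcp4 had 234 and 222 CPM within 3 pitches and 1346 and 1459 CPM beyond 18, Hpcal4 67.1 and 73.5 CPM and 261 and 222 CPM from 9 to 12, and C1ql3 13.4 and 15.4 CPM from 6 to 9 pitches, against 50.2 and 58.8 CPM from 9 to 12. The bins lack the 60 highest-scoring spots of each section, while the lower-scoring spots with both genes remain in them.

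**Figure D5:**
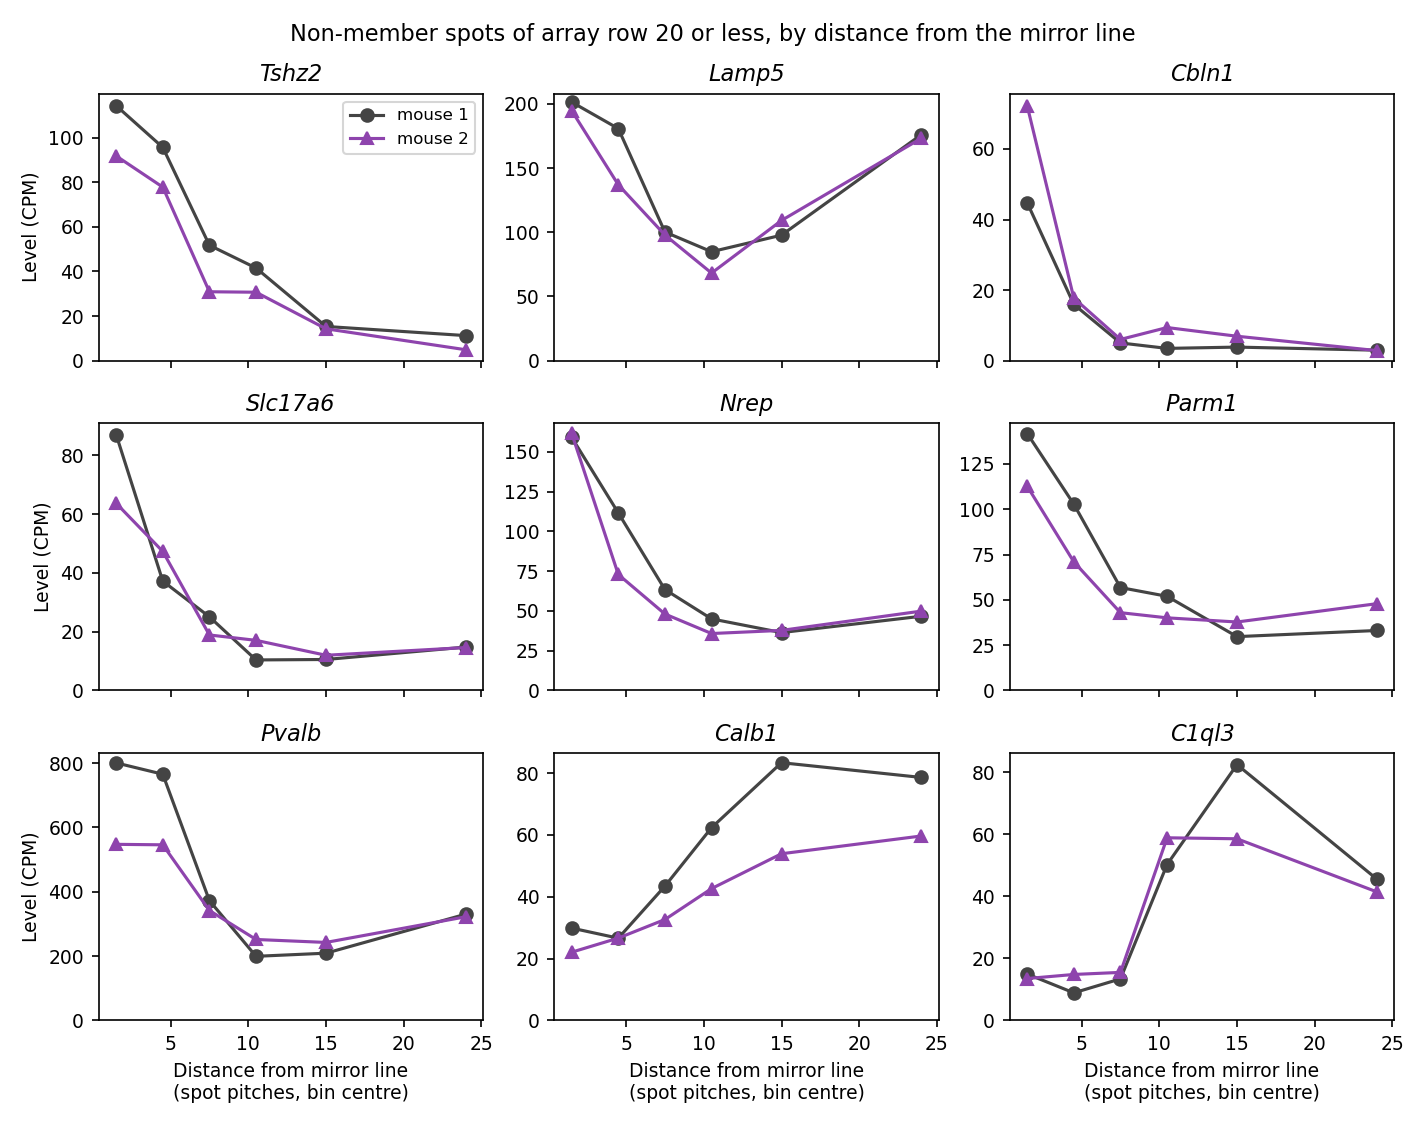
Levels in CPM of 9 genes in eligible spots of rows up to 20 that were not chosen, against the centre of each distance bin from the mirror line in spot pitches (circles, mouse 1; triangles, mouse 2). Tshz2, Cbln1, Slc17a6, Nrep, Parm1 and Pvalb are highest next to the midline in both mice, Lamp5 is high at both ends, and Calb1 and C1ql3 are higher laterally.

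Within the Tshz2-Lamp5 spots, image left was set against image right, since hM3Dq was injected at 1 site and the labels leave its side open. The 31 and 27 spots on the left held 267062 and 383033 UMIs, and the 27 and 31 on the right 179472 and 498982. Of 5183 genes tested by edgeR, none was higher on the left and 3 were lower (0.0579%), with 193 genes (3.72%) at an unadjusted p under 0.05, and DESeq2 called 0 in either direction. The 3 were the haemoglobin genes Hbb-bt, Hba-a1 and Hba-a2, and the 2 mice opposed each other in all of them. Hbb-bt had 22 and 34 UMIs on the left, against 4 and 153 on the right, so it was higher on the left in mouse 1 and on the right in mouse 2. A single spot of mouse 2 held 73 of its UMIs.

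Immediate early and complement genes gave no call between the sides. Egr1 had 157 and 154 CPM on the left, against 139 and 142 CPM on the right (log2 0.11 ± 0.22), and C1qa 37.4 and 39.2 CPM, against 27.9 and 48.1 CPM (log2 -0.11 ± 0.42). Fos, with 22.5 and 15.7 CPM on the left, against 33.4 and 24.0 CPM on the right, and Arc, with 18.7 and 26.1 CPM, against 11.1 and 8.02 CPM, were too low to be tested. Tshz2 itself stood at 374 and 256 CPM on the left, against 295 and 214 CPM on the right, and Lamp5 at 472 and 360.3 CPM, against 418 and 485 CPM. The SE of about 0.2 to 0.4 for such genes, with 2 mice, leaves differences of that size undetectable at this depth.

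The spots were also split at the section's median distance to the nearest array position outside tissue, with 30 deeper and 30 shallower spots in each mouse. That distance was taken in any direction and was not matched to cortical layers, so deeper and shallower name positions and not layers. Of 5280 genes, 2 were higher in the deeper spots (0.0379%) and none lower by edgeR, with 458 (8.67%) at an unadjusted p under 0.05 and 1 higher call by DESeq2. Ttr, 1 of the 2, had 169 and 598 CPM in deeper spots, against 84.3 and 246 CPM in shallower ones (log2 1.11 ± 0.16, edgeR adjusted p = 0.0412). The count moved widely with the settings, to 20 higher and 69 lower when mitochondrial genes were left out and to 0 and 0 without the mouse term. Ptgds, at 1889 and 1146 CPM, against 871 and 826 CPM (log2 0.66 ± 0.14, edgeR adjusted p = 0.117), and Nrgn, a postsynaptic calmodulin-binding protein, at 1537 and 1677 CPM, against 2567 and 2203 CPM (log2 -0.65 ± 0.11, edgeR adjusted p = 0.0617), did not pass but did so under 9 and 8 of the alternatives.

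None of the leading rises of the earlier comparisons passed between deeper and shallower spots. Cbln1 had 45.8 and 57.7 CPM in deeper spots, against 56.2 and 56.4 CPM in shallower ones, Parm1 169 and 188 CPM, against 146 and 167 CPM, and Etv1 236 and 248 CPM, against 230.3 and 269 CPM. Pvalb had 923 and 844 CPM, against 989 and 954 CPM (log2 -0.24 ± 0.10). Tox, a transcription factor, had 56.4 and 69.2 CPM, against 16.9 and 23.1 CPM, and also missed the threshold. Scnn1a, of which few UMIs were found, had 7.05 and 5.77 CPM, against 16.9 and 17.96 CPM. A p that misses the threshold does not show that these levels are alike.

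The 2 mice could be set side by side but not tested, with 1 section each. Of 2194 genes with at least 100 UMIs in the Tshz2-Lamp5 spots, 2107 had a ratio of mouse 2 to mouse 1 within 1.5-fold of their ratio in the other eligible spots. Tshz2 and Lamp5 chose the spots, so their ratios are a description and carry no interval. Tshz2 stood at 229.7 CPM in mouse 2, against 338 CPM in mouse 1, a ratio of 0.680, beside 0.786 in other spots. Lamp5 had 432 CPM in mouse 2, against 448 CPM in mouse 1, with a ratio of 0.964. The ratio furthest above that of other spots belonged to Ttr, with 447 CPM in mouse 2, against 136.4 CPM in mouse 1 (ratio 3.28, interval 2.51 to 4.35, against 1.41 in other spots), followed by Pcp4l1 with 92.3 CPM in mouse 2, against 36.8 CPM in mouse 1. Lrrc17 had 469 CPM in mouse 2, against 86.6 CPM in mouse 1 (ratio 5.42), and differed more in other spots, with 514 CPM in mouse 2, against 48.1 CPM in mouse 1 (ratio 10.7). The C1q genes had ratios of 1.42 (C1qa), 1.45 (C1qb) and 1.18 (C1qc), all with intervals that include 1.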

How the data were processed

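RNA of 2 Visium sections, 1 from each of 2 mice of 1 group, was analysed. The authors deposited counts: each value is the whole number of UMIs of a gene in a spot. Space Ranger 1.3.1 wrote them, per the file headers, and the build was mm10, as the submitters' processing notes name it. Aligner settings and annotation remain not given in the sources used here. Of 32285 genes, 78 carry a shared symbol and were kept by identifier. Gene coordinates came from RefSeq's GRCm38.p6 table, matched by symbol.

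The Tshz2-Lamp5 spots and the gene lists were chosen with earlier results of these data known. UMIs were summed per mouse and spot set and compared with edgeR 4.0.16 under R 4.3.3 (quasi-likelihood test after filterByExpr and TMM scaling, the mouse being a block because both sets of a fit lie in 1 section), with adjustment by Benjamini-Hochberg and a threshold of 0.05, with DESeq2 1.42.0 as an alternative. Each fit has 4 libraries and 1 residual degree of freedom. An SE is the size of the log2 ratio over the square root of F. Tshz2 and Lamp5 were not tested. The mirror line maximised the correlation of mirrored scores on 10 components of 2000 variable genes (Python 3.11.15). The fits were tested on simulated data.

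Genes were named by rule: the 15 largest rises and 10 largest falls with 1 direction in both mice and at least 50 CPM, up to 3 genes per list, the most abundant gene of a list with no call, and C1qa, C1qb, C1qc, Fos, Arc, Npas4 and Egr1, with up to 8 rises, 8 falls and 2 per list within the Tshz2-Lamp5 spots. Other list members are mentioned only as having passed or not, and genes given by levels alone were chosen after their values were seen. The summed sets hold 178020 to 16744473 UMIs, and intervals cover counting error only. Some genes that the rule selects are not reported here.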

Additional observations from a re-analysis of the deposited data

How the results depend on the processing

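Counts of called genes depended on the settings more than directions did, and each cause was not tested unless named. Against all other spots, the 674 higher and 757 lower genes became 173 and 190 under DESeq2, 289 and 383 with 30 spots per section, and 66 and 150 after thinning to 2000 UMIs, where fewer UMIs enter. The mouse pairs the 2 libraries of a section, and without that replicate block the counts were 233 and 224. Against Lamp5 spots without Tshz2, the 69 higher and 164 lower genes became 4 and 22 under DESeq2, 14 and 37 without the block, 11 and 16 with 30 spots, and 13 and 25 after thinning, and 151 were higher with 120 spots. Between image sides, the 0 higher genes became 2 without the filter on low counts, and the 3 lower genes became 0 under DESeq2, without the block, with 30 or 120 spots, with the raw-count score and after thinning. Between deeper and shallower spots, the 2 higher and 0 lower genes became 7 and 12 with RLE size factors, 10 and 14 without the filter, 93 and 130 with 120 spots, 13 and 53 with rows up to 20, 63 and 50 with the raw-count score, 20 and 45 with only spots that have a neighbour among the 60, 20 and 69 without mitochondrial genes, and 9 and 36 without the 5 spots far from the midline, a setting chosen after seeing the data. DESeq2 called 1 higher there, the fit without the block called 0 higher, and 1 and 4 were lower with 30 spots and after thinning. Of the called genes that were followed, 29 of 98 against all other spots, 5 of 50 against Lamp5 spots and 0 of 2 with depth lost the call in no alternative that gave them a value. DESeq2 gave one for 65 of the 98 and 10 of the 50, thinning for 89 and 25, and 30 spots for 98 and 44. Direction turned against all other spots for Igf2, at a log2 ratio of 0.21 with rows up to 20, and for Dcn, at 0.0772 with 120 spots, 0.33 with rows up to 20 and 0.12 with the raw-count score. It turned for Mag against Lamp5 spots, at -0.0504 after thinning, for Ttr there, at -0.46 without mouse 2 and 1.09 without mouse 1, and for Hbb-bs with depth, at -0.48 with 120 spots. Leaving out a mouse gives a log2 ratio of the other mouse with no test, since 2 libraries remain.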

Other observations

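Single spots carried some calls. S100a8 and S100a9, which encode the calprotectin subunits of neutrophils, passed against all other spots with log2 ratios of 3.16 and 3.10, but mouse 1 had 0 UMIs of either in its Tshz2-Lamp5 spots, and 1 spot of mouse 2 held 29 UMIs of S100a8 and up to 30 of S100a9. In all, 14 genes passed in that comparison with the 2 mice in opposite directions.

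Of 6 listed Tshz and Lamp relatives, Tshz3 was higher in the Tshz2-Lamp5 spots, at 23.8 and 23.1 CPM, against 10.9 and 12.9 CPM in other spots (log2 0.93 ± 0.33), and Cd63 was lower. Tshz3 lost its call under 6 alternatives and Cd63 under 5, rows up to 20 among them for both. Of 46 adhesion and guidance genes, 6 were higher, Cntn4, Cntn6, Ntng1, Lrrtm3, Lrrc4c and Plxnd1, and 3 lower, Pcdh20, Epha4 and Sema3e, against 5.15% higher and 5.79% lower over all genes. Of 8 genes of stress and RNA quality, 1 was higher and 2 were lower, with Malat1 at 1137 and 923 CPM, against 1321 and 1434 CPM (log2 -0.45 ± 0.08).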
